A study of Mus musculus with 6 samples.

Results

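The 10 genes described here encode RNA-binding proteins and nucleases that set how long an mRNA lasts: Khsrp (the protein KSRP), Elavl1 (HuR), Hnrnpd (AUF1), Zfp36 (tristetraprolin), Zfp36l1, Zfp36l2, Parn, Exosc10, Tia1 and Tial1. They were chosen by name, as regulators of decay through AU-rich elements, because KSRP is a reported partner of the H19 RNA in myoblasts. Every row whose platform annotation gave one of these symbols was taken, which was 10 probe sets, 1 for each gene, among 19938 genes with 1 symbol and 23410 annotated probe sets.

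All samples came from C2C12, a long-established mouse line of myoblasts, which fuse into myotubes once serum is reduced. Growth medium held 10% fetal bovine serum, and differentiation was started near 90% density by a change to 2% horse serum. On day 1 of differentiation they were transfected either with a control siRNA (siCon) or with an siRNA against mouse H19 (simH19), in triplicate, and total RNA was taken 40 h later. All cells were the same wild type line, 1 siRNA reagent stood for H19 depletion, and nothing states that the triplicates were separate cultures, so p-values measure a spread that may be technical.

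AU-rich elements are stretches of A and U near the 3′ end of short-lived mRNAs, among them those of cytokines, immediate early factors and myogenic regulators. KSRP, AUF1 and the tristetraprolin family bind them and bring in deadenylases, decapping enzymes and the exosome, while HuR mostly protects the same mRNAs, and TIA1 and TIAR hold back their translation. In muscle cells KSRP is known to destabilise myogenin mRNA before differentiation and to promote processing of microRNA precursors, and HuR is known to stabilise Myod1, Myog and Cdkn1a mRNAs.

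The hairpins below are shown because KSRP is known to bind the G-rich terminal loop of the let-7a-1 precursor, because miR-206 is a muscle microRNA, and because miR-675 is made from H19 itself. The sequences are RefSeq's for GRCm38.p6, 5′ to 3′, and capitals mark the loop between the mature arms.
Mirlet7a-1 (chr13:48538179-48538272, minus strand): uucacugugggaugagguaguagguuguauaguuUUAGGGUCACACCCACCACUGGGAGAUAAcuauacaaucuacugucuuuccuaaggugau
Mir206 (chr1:20679010-20679082, plus strand): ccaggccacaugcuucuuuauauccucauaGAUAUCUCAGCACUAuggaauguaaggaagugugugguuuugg
Mir675 (chr7:142577064-142577147, minus strand): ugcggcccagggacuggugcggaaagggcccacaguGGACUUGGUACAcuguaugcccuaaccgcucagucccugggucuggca
The let-7a-1 loop is 29 bases long and holds the triplet GGG at 2 places, whereas the miR-206 loop of 15 bases and the miR-675 loop of 12 bases hold it at 0.

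The H19 signal was lower on every H19 siRNA array, and muscle markers were bright in both groups. H19 was followed through a probe set annotated to Mir675 together with Supt6. It read between 12.21 and 12.27 with control siRNA, read between 10.28 and 10.38 after depletion, and fell by 1.89 on the log2 scale (SE 0.041; limma adjusted p = 2.11e-05). All 12 muscle markers, of myoblasts and of differentiating muscle cells, had their mean over the 6 arrays at the 74.4th percentile of all rows or above. Their median percentile was 91.9. The median percentile was 33.8 for 6 macrophage markers, 35.3 for 6 adipocyte markers and 36.4 for 6 endothelial markers. Single members of these lists were brighter, with the macrophage marker Cd68 at the 62.0th percentile. The adipocyte marker Pparg had means of 9.74 with control siRNA and 9.82 with H19 siRNA. Those lay above the means of the muscle marker Myh3, 9.34 and 9.31. Of all probe sets 43, or 0.184%, passed a limma adjusted p of 0.05.

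None of the 10 regulators changed past the threshold when H19 was depleted. In limma 0 of the 10 probe sets passed an adjusted p of 0.05, against 0.184% of all probe sets, and their adjusted p-values ran from 0.465 for Zfp36 to 0.979 for Zfp36l2. At an unadjusted limma p under 0.05 there was 1 of 10, Zfp36, where 10.7% of all probe sets stood. The differences, H19 siRNA minus control siRNA, ran from -0.050 for Tia1 to 0.115 for Zfp36l1 on the log2 scale, with a median of 0.029, beside a median of 0.013 over all probe sets. Each 95% interval lay within 0.25 of 0 on the log2 scale. The widest upper bound, that of Zfp36l1, was a 1.17-fold increase, and the lowest bound, that of Tia1, was a change of -10.6%.

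**Figure D1:**
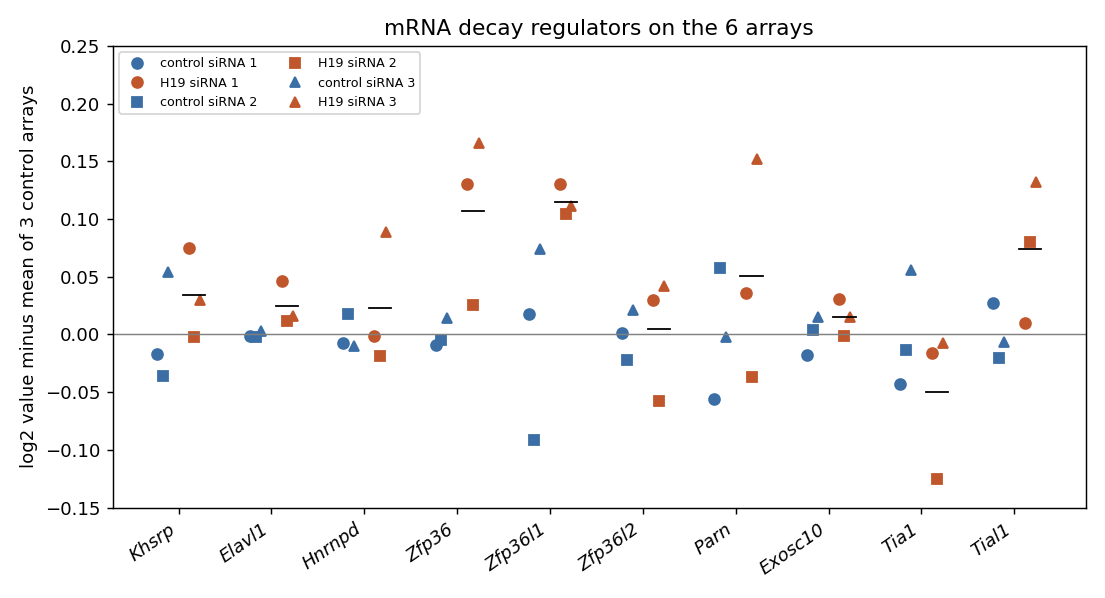
Log2 value of each of the 10 genes on each array, minus that gene's mean over the 3 control arrays (vertical axis). Blue points are control siRNA and orange points H19 siRNA arrays, symbols give the replicate number, and black bars are H19 siRNA means. The groups overlap except for Elavl1, Zfp36 and Zfp36l1, where all 3 H19 siRNA arrays lie above all 3 control arrays.

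The mRNA of KSRP, the decay factor and microRNA-processing cofactor reported to bind H19, did not differ beyond the spread of the arrays. Khsrp (probe set 10452228) read 10.34, 10.32 and 10.41 in the control group against 10.43, 10.36 and 10.39 after H19 depletion. The groups overlapped, with control array 3 above H19 siRNA arrays 2 and 3. The means were 10.36 ± 0.047 and 10.39 ± 0.039 (SD, n = 3 each), a difference of 0.034 (SE 0.041; limma adjusted p = 0.810). The 95% interval of the change ran from -4.24% to 9.44%. The arrays measured RNA, so the amount, phosphorylation and binding of the KSRP protein were not measured.

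HuR, the stabilising counterpart of KSRP, showed the tightest control values of the 10 genes. Elavl1 (probe set 10576873) read 11.66 on all 3 control arrays, against 11.71, 11.67 and 11.68 after H19 depletion. Each H19 siRNA array lay above each control array, the nearest pair being closer than the standard error of the fit. The difference was 0.025 (SE 0.031), with a limma adjusted p of 0.819 and a 95% interval from -3.37% to 7.14%. The SD was 0.0028 over the control arrays and 0.018 over the H19 siRNA arrays (n = 3 each).

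AUF1, an AU-rich element binder with several protein isoforms, overlapped between groups. Hnrnpd (probe set 10531633) read 11.19, 11.22 and 11.19 with control siRNA and 11.20, 11.18 and 11.29 with H19 siRNA. Only the third H19 siRNA array stood above the controls. The difference was 0.023 (SE 0.040; limma adjusted p = 0.872), and without that array it was -0.0099. The probe set does not tell the isoforms apart.

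Among the tristetraprolin family, zinc finger proteins that recruit the CCR4-NOT deadenylase, Zfp36 and Zfp36l1 read higher on every H19 siRNA array and Zfp36l2 did not. Zfp36 (probe set 10561453), the stimulus-induced member, read 7.96, 7.97 and 7.99 with control siRNA and 8.10, 7.998 and 8.14 with H19 siRNA. The second H19 siRNA array was close to the controls and the other two were above them. The difference was 0.107 (SE 0.045; 95% interval 0.0011 to 0.213), a 1.08-fold ratio with a limma adjusted p of 0.465.

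Zfp36l1 (probe set 10401238), which is known for its role in vascular and lymphoid development in mice, read 10.24, 10.13 and 10.29 with control siRNA and 10.35, 10.32 and 10.33 with H19 siRNA. Here the spread came from the controls, with a low second control array. The difference was 0.115 (SE 0.048; limma adjusted p = 0.469), and without the second control array it was 0.069. Zfp36l2 (probe set 10453272), required for female fertility and blood cell formation in mice, read 11.78, 11.76 and 11.80 against 11.81, 11.72 and 11.82. The control values lay inside the range of the H19 siRNA values, with a difference of 0.0044 (SE 0.040; limma adjusted p = 0.979) that was -0.018 after median centring.

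The unequal readings within the families were compared directly, as differences between related genes on the same array, in 4 pairs. The log2 difference Zfp36 minus Zfp36l2 was -3.81 ± 0.015 in controls against -3.71 ± 0.021 after depletion (SD, n = 3 each), and the groups did not overlap. It shifted by 0.103, with an exact two-sided permutation p of 0.1, the smallest that 3 against 3 arrays allow, and 0.2 after adjustment over the 4 pairs. For Zfp36l1 minus Zfp36l2 the shift was 0.110, again without overlap and with the same exact p-values. Zfp36 minus Zfp36l1 shifted by -0.0074 (exact permutation p = 0.9). The design cannot reach a p of 0.05 in such a test, so none of these pairs could pass.

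Both nucleases of the set overlapped between groups. Parn (probe set 10437778), a poly(A)-specific ribonuclease that KSRP is known to recruit, read 9.50, 9.62 and 9.56 with control siRNA and 9.59, 9.52 and 9.71 with H19 siRNA. It had the widest spread among the 10 genes, with an SD of 0.095 over the H19 siRNA arrays. The difference was 0.051 (SE 0.058; limma adjusted p = 0.798), which was -0.00036 without the third H19 siRNA array. Exosc10 (probe set 10510365), the nuclease subunit of the nuclear exosome, read 11.38, 11.40 and 11.41 against 11.42, 11.39 and 11.41. That is a difference of 0.015 (SE 0.032; limma adjusted p = 0.895; 95% interval -4.12% to 6.49%), and of -0.0074 after median centring.

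TIA1 and its relative TIAR, translational repressors that gather in stress granules, differed in sign. Tia1 (probe set 10539710) read 9.93, 9.96 and 10.03 with control siRNA and 9.96, 9.85 and 9.97 with H19 siRNA, and was the one member with a negative difference, -0.050 (SE 0.047; limma adjusted p = 0.759). The second H19 siRNA array carried most of it, since the difference was -0.012 without that array. Tial1 (probe set 10568399) read 9.34, 9.29 and 9.30 against 9.32, 9.39 and 9.44, a difference of 0.074 (SE 0.042; limma adjusted p = 0.596). The log2 difference Tial1 minus Tia1 shifted by 0.123, with overlapping groups and an exact permutation p of 0.2 (0.267 adjusted over the 4 pairs).

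**Figure D2:**
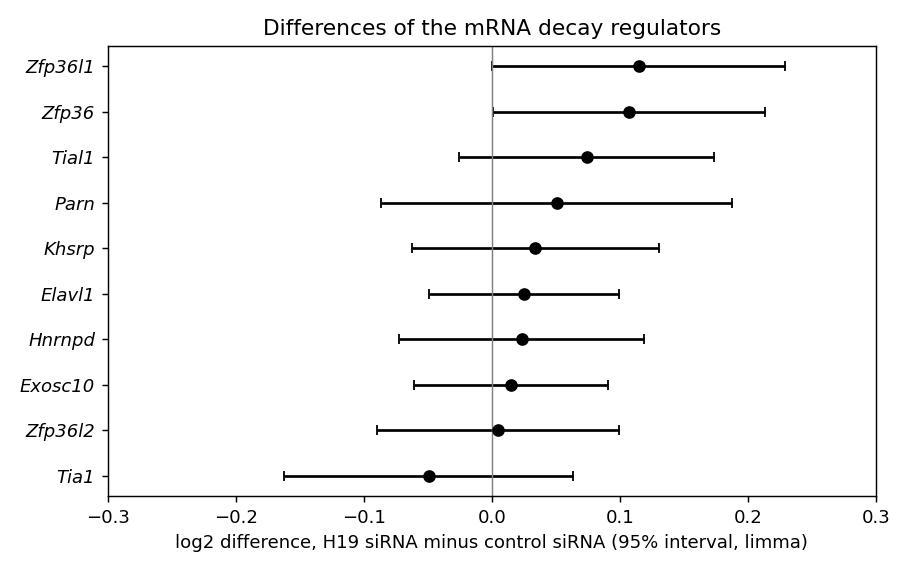
Log2 difference, H19 siRNA minus control siRNA, of each of the 10 genes (horizontal axis), with its 95% interval from limma (3 arrays per group). All intervals lie within 0.25 of 0, and that of Zfp36 starts at 0.0011.

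Across the set, 3 of 10 probe sets had groups that did not overlap, Elavl1, Zfp36 and Zfp36l1, all higher with H19 siRNA. Over all probe sets 17.5% did not overlap, 10.4% in the higher and 7.1% in the lower direction. The difference was above 0 for 9 of 10 members and for 57.5% of all probe sets, and after centring each array on its median for 7 of 10 members and 44.3% of all probe sets. Without the third H19 siRNA array it was above 0 for 6 of 10. The second H19 siRNA array gave the lowest of the 3 H19 siRNA values for 9 of the 10 members, Tial1 excepted, and for 45.4% of all probe sets. Without it the members' median difference was 0.048, with 0 called and a smallest adjusted p of 0.231.

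The genes whose pattern over the 6 arrays lay closest to that of Khsrp were Rhbdd2, Wipf2 and Capn1. Closeness was the largest gap on any array between mean-centred log2 values, among 17525 probe sets of other genes whose range was at least that of Khsrp. The largest gap was 0.013 for Rhbdd2, 0.017 for Wipf2 and 0.019 for Capn1, against a range of 0.111 for Khsrp itself. With 6 arrays and this many candidates, close matches carry no more than that description.

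Other genes of mRNA decay, of stress granules and of signalling to decay factors held 0 called probe sets in any of 7 lists. The 10 regulators also held 0, and 0.184% of all probe sets were called. At that share, 0 calls in lists of 13 to 32 probe sets do not set these genes apart. In the order given below, these lists had 26 of 28, 22 of 24, 18 of 22, 21 of 21, 13 of 17, 15 of 15 and 23 of 24 genes with a probe set of their own, and the other genes were not analysed here. Among 32 probe sets of 26 other proteins that bind AU-rich, U-rich or GU-rich mRNA, the median difference was 0.018, with 3 higher and 0 lower at an unadjusted limma p under 0.05 (6.39% and 4.26% of all probe sets). Rbm38, an RNA-binding target of p53 that is known to support cell cycle exit in muscle cells, differed by 0.161 (limma adjusted p = 0.233). Both probe sets of Celf2, a splicing and decay factor, differed by 0.132 and 0.126 (limma adjusted p = 0.282 and 0.244). Rc3h2, a roquin protein of stem-loop decay, differed by -0.073 (limma adjusted p = 0.514).

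Deadenylases and their recruiters lay around 0, with a median of -0.0032 over 24 probe sets. Noct, a nocturnin enzyme of the circadian clock first described as a deadenylase, differed by 0.105, and the CCR4-NOT subunits Cnot6l and Cnot11 by 0.074 and 0.073. The exosome list without Exosc10 had a median of 0.017 over 22 probe sets, with Dis3, its catalytic nuclease, at 0.085, the subunit Exosc8 at -0.072 and the nuclear adaptor Rbm7 at -0.074. In the exosome list 0 probe sets had an unadjusted limma p under 0.05, and in the deadenylase list 1, against 10.7% of all probe sets. In limma the adjusted p of these 6 genes was between 0.462 for Noct and 0.622 for Cnot11.

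Decapping and 5′ to 3′ decay had a median of 0.018 over 27 probe sets, with 2 higher and 2 lower at an unadjusted limma p under 0.05 (6.39% and 4.26% of all probe sets), and both lower ones belonged to Lsm7. Lsm7, a subunit of the ring that binds shortened mRNA tails, was lower on both of its probe sets, by -0.138 and -0.151 (limma adjusted p = 0.311 and 0.355). The probe sets of its partner Lsm5 disagreed, at 0.469, 0.021 and -0.016. The first of these was dim, with a mean of 5.82 with control siRNA and an SD of 0.333 over the H19 siRNA arrays. Lsm14a, a P-body protein, differed by 0.090. In nonsense-mediated decay (13 probe sets, median 0.00072) Smg9 differed by 0.099, Upf2 by -0.108 and Smg6 by -0.061, with limma adjusted p-values of 0.464, 0.511 and 0.614.

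Stress granule genes, the company of TIA1, had a median of 0.017 over 18 probe sets, with 1 higher and 4 lower at an unadjusted limma p under 0.05 (6.39% and 4.26% of all probe sets), and 3 of the 4 belonged to Larp4. Eif2ak2, the interferon-inducible kinase PKR that is activated by double-stranded RNA, differed by 0.195 (limma adjusted p = 0.225). Eif2ak3, the endoplasmic reticulum stress kinase PERK, differed by -0.128 (0.299 in limma after adjustment). All 3 probe sets of Larp4, a poly(A)-tail binding protein, lay lower, at -0.124, -0.127 and -0.157, with limma adjusted p-values of 0.403, 0.364 and 0.380. Kinases and scaffold proteins that act on KSRP, HuR, AUF1 or tristetraprolin had a median of 0.00097 over 30 probe sets. In this list 2 were higher and 0 lower at an unadjusted limma p under 0.05 (6.39% and 4.26% of all probe sets). Groups did not overlap for 8 in the higher and 1 in the lower direction (10.4% and 7.1% of all probe sets). The 8 included all 3 probe sets of Hsp90aa1 and the 2 of Akt2, so they stood for fewer genes. Akt2, a kinase of the family known to phosphorylate KSRP during myogenesis, differed by 0.102 and 0.051 on its 2 probe sets (limma adjusted p = 0.350 and 0.614). The 3 probe sets of the chaperone gene Hsp90aa1 differed by 0.046 to 0.082, and the 2 of the scaffold protein gene Ywhah by 0.070 and -0.0027. Mapk14, the p38 kinase that also acts on KSRP, differed by -0.0055.

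**Figure D3:**
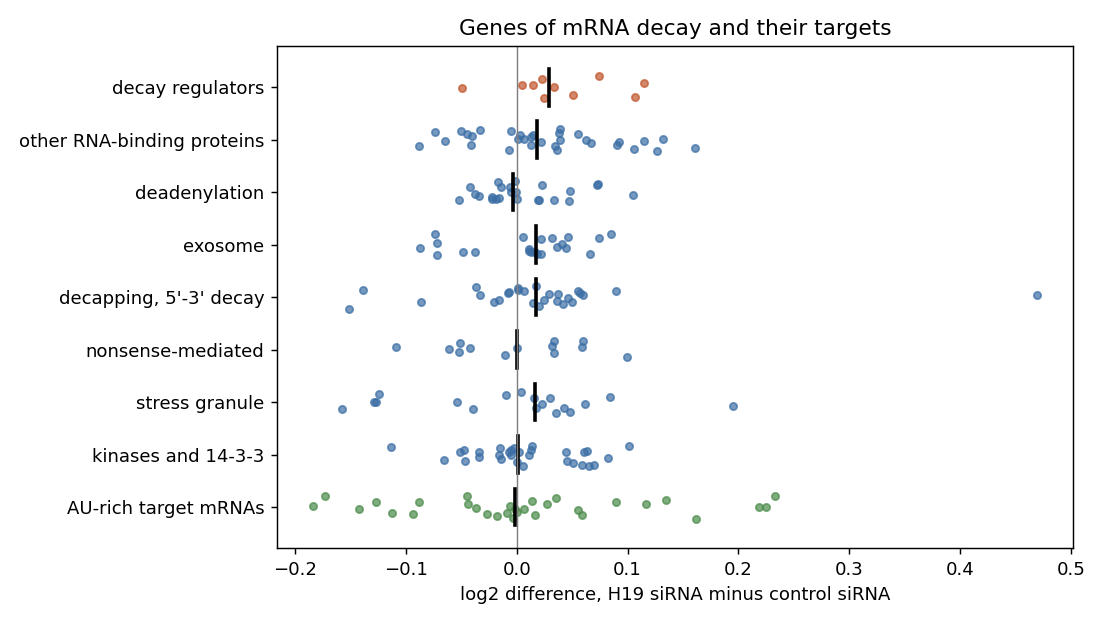
Log2 difference, H19 siRNA minus control siRNA (horizontal axis), of every probe set in the 10 regulators (orange) and in AU-rich target mRNAs (green). Blue dots are 7 lists of other genes, of mRNA decay, of stress granules and of signalling to decay factors. Black bars are at the medians. The dots of the 10 regulators lie between -0.050 and 0.115, and the single dot at 0.469 is the dim Lsm5 probe set.

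Among mRNAs that these proteins are known to bind, differences ran from -0.183 to 0.233. Of 31 AU-rich targets measured, from 34 listed, 0 passed over all genes in limma, where 0.184% of all probe sets did. At an unadjusted limma p under 0.05 there were 7 higher and 5 lower of 31, against 6.39% and 4.26% of all probe sets. The list's median was -0.0011. The list was chosen with earlier results of these data known, so these shares describe it and do not test it. Groups did not overlap for 7 in the higher and 6 in the lower direction (10.4% and 7.1% of all probe sets). The counts at an unadjusted limma p under 0.05 were 7 higher and 4 lower without the second H19 siRNA array. They were 5 and 3 without the first or the second control array, and 4 and 5 after median centring.

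Myog and Myod1 had the smallest p of the 31 targets and lay higher on every H19 siRNA array. Myog, the myogenin transcription factor whose mRNA KSRP destabilises, read 11.21, 11.16 and 11.17 with control siRNA and 11.42, 11.39 and 11.41 with H19 siRNA. The groups were well apart, with a difference of 0.225 (SE 0.033; limma adjusted p = 0.0831). Myod1, the myoblast determination factor, read 11.55, 11.53 and 11.58 against 11.83, 11.74 and 11.78, a difference of 0.233 (SE 0.038; limma adjusted p = 0.103). Neither passed here, although both passed with an intensity trend and robust variance together (limma adjusted p = 0.000535 and 0.000665) and with a filter at the median of all rows (0.0194 and 0.0277), and Myog also with the filter at the 30th percentile (0.0498). Over all alternatives the limma adjusted p reached 0.396 for Myog and 0.429 for Myod1. The probe set listed under both Cdkn1a, the cell cycle inhibitor p21, and 4930567H12Rik differed by 0.059 (limma adjusted p = 0.566).

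Of the 12 muscle markers, which include Myod1, Myog and differentiation genes such as Myh3, Ckm and Acta1, 0 were called, against 0.184% of all probe sets. Among them 10 had a positive difference (57.5% of all probe sets) and 8 were higher at an unadjusted limma p under 0.05 (6.39% of all probe sets). These counts do not test the markers as a set, which was also chosen with earlier results known. The cadherin Cdh15 had the smallest p, with a difference of 0.278 (limma adjusted p = 0.0568), while Myh3 differed by -0.029 and Actc1 by -0.0064. Their summed level on the linear scale ran from 37783 to 38121 in the control group, against 40547 to 41725 after H19 depletion. The part of this difference in the values of Myog and Myod1 was not tested, and in bulk RNA more differentiated cells and more RNA per cell cannot be told apart.

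Cxcl1, a neutrophil chemokine with an AU-rich mRNA, differed by -0.183 (SE 0.035; limma adjusted p = 0.146) and was lower on every H19 siRNA array. Other targets of inflammation, named after their values were seen, went both ways. The early response gene Ier3 (-0.173), the dim cytokine gene Il6 (-0.127), the chemokine gene Ccl2 (-0.112) and the prostaglandin synthase gene Ptgs2 (-0.094) lay below every control array. The cytokine gene Tnf differed by 0.161 with overlapping groups, and Il1b (0.059), Nos2 (0.055), Cxcl2 (0.028) and Csf2 (0.0070) were also above 0. From Tnf to Csf2 these genes were dim, with control means from 4.85 for Cxcl2 to 6.63 for Nos2. Those means lay below every array median (6.73 to 6.78). Ccl2 and Ptgs2 were bright, with control means of 11.68 and 11.37. So was Ccl7 (11.34), which differed by -0.045 with overlapping groups. Lif, a cytokine of the same family as Il6, differed by 0.219, the growth regulator Myc by 0.135 and the angiogenic factor Vegfa by 0.117, each above every control array. In limma the adjusted p was between 0.259 for Lif and Myc and 0.967 for Csf2, with Tnf at 0.439. The immediate early gene Fos (-0.0029) and the serum response gene Egr1 (-0.0058), classic short-lived mRNAs, were near 0. Junb (-0.0088) and Ier2 (-0.017) were also near 0. Jun, on the same list, differed by 0.089 and lay above every control array (limma adjusted p = 0.424). Dusp1 differed by -0.088 with overlapping groups (limma adjusted p = 0.710).

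**Figure D4:**
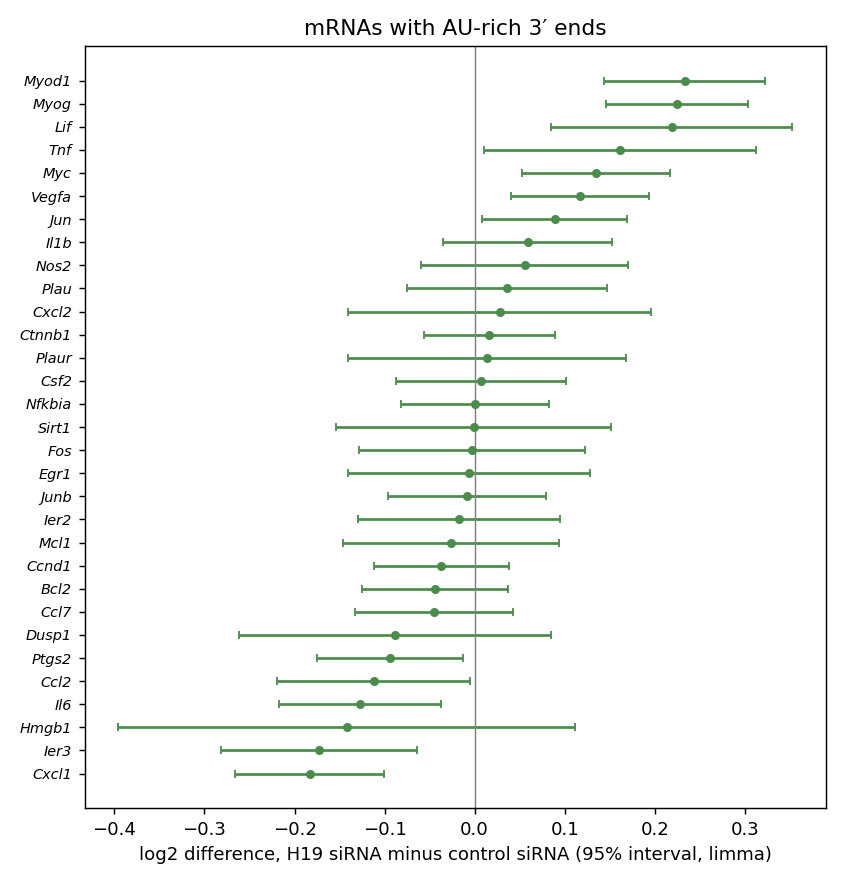
Log2 difference, H19 siRNA minus control siRNA (horizontal axis), of 31 mRNAs with AU-rich 3′ ends, with 95% intervals from limma (3 arrays per group). Myod1 and Myog stand at the top at 0.233 and 0.225 and Cxcl1 at the bottom at -0.183, with none called.

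The let-7a-1 and miR-206 genes, whose hairpins are printed above, were dim on these arrays, unlike the probe set that carries Mir675. Such probe sets do not separate primary transcript, precursor and mature form. Mirlet7a-1 read 5.63, 5.55 and 5.68 with control siRNA and 5.57, 5.61 and 5.64 with H19 siRNA, a difference of -0.012 (limma adjusted p = 0.946). Mir206 read 5.70, 5.79 and 5.84 against 5.97, 5.90 and 6.04, without overlap, a difference of 0.197 (SE 0.055; limma adjusted p = 0.284). The other 5 probe sets of let-7a, miR-1 and miR-133a genes differed by -0.041 for Mir1a-1 to 0.177 for Mir133a-1, with limma adjusted p-values of 0.444 and above.

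Promoter windows are printed for Khsrp, as the H19 partner, and for Zfp36, the member with the smallest p. They are RefSeq's for GRCm38.p6, 250 bases before to 50 after the gene start, with capitals at E-boxes (CANNTG), the motif that myogenic factors bind.
Khsrp (chr17:57031458-57031757, minus strand): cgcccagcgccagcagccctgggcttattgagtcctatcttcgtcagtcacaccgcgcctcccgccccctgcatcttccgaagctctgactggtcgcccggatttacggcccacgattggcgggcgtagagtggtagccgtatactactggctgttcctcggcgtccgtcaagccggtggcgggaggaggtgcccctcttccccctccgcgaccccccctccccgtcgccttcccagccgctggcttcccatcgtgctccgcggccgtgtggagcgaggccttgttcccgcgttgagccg
Zfp36 (chr7:28379179-28379478, minus strand): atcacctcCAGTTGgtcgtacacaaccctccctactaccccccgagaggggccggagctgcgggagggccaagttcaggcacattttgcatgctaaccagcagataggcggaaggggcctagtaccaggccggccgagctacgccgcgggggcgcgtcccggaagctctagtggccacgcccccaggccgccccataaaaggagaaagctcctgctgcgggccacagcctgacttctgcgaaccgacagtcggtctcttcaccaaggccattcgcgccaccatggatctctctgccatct
The Zfp36 window held 1 E-box and the Khsrp window 0. Of 11 windows for 9 of the 10 genes, 5 held an E-box, against 72.3% of all 32851 windows. The GC box GGGCGG, searched on both strands, was in 6 of the 11 and in 35.7% of all windows, with 0 overlaps between both motifs. CANNTG was searched on both strands, being its own reverse complement. A match describes letters and not binding.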

How the data were processed

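Total RNA of 3 control siRNA and 3 H19 siRNA samples was hybridised to Affymetrix whole-transcript arrays. The authors deposited log2 values, 1 per probe set and array. Per the submitters' processing notes, Affymetrix Expression Console was used with RMA, which subtracts background, equalises the arrays' distributions and condenses probes, so that differences of dim probe sets are understated. The sources used here name no software version or genome build. Values lay between 2.97 and 14.6, with array medians of 6.73 to 6.78. Detection calls and raw scans were not analysed here, and the number of arrays limits the precision.

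Of 35556 rows, 21789 had 1 gene symbol in GEO's platform annotation, 1621 had several and 12146 were not listed. The 23410 listed probe sets were fitted together in limma (version 3.58.1, under R 4.3.3; lmFit, then eBayes), with two-sided tests and without covariates or a filter, and p-values were adjusted by Benjamini-Hochberg over all of them. A probe set was called at an adjusted p under 0.05. Single values were also compared by an exact permutation test. The fit was tested on simulated data. Members and gene lists were chosen with earlier results of these data known. Besides all 10 members, the genes named were the probe sets that carry Mir675 or Cdkn1a, Myod1, Myog, up to 3 genes of each list with the smallest p, and the 3 genes closest to Khsrp in pattern. Any other gene was named after its values were seen. Alternatives were an intensity trend with robust variance, array weights, filters on dim probe sets, median centring, a second quantile normalisation, a replicate block, 1 probe set per gene, all rows, and leaving out each array.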

Additional observations from a re-analysis of the deposited data

How the results depend on the processing

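No member passed an adjusted p of 0.05 under any of the 15 alternatives, where the members' adjusted p-values ran from 0.231 to 0.998. The count over all probe sets, 43, became 408 under an intensity trend combined with robust variance and 72 under array weights. Filters on dim probe sets gave 69 (30th percentile) and 190 (median). It was 11 over all rows. It was 1, 2 and 4 when control array 1, 2 or 3 was left out, and 2, 13 and 1 when H19 siRNA array 1, 2 or 3 was. It was 1 with the replicate block. Same-numbered arrays correlated in their deviations from the group means at -0.020, -0.14 and -0.15, and arrays of other numbers at up to 0.14. With means of 3 arrays, such correlations cannot decide whether the numbers paired the samples. Of the 7 lists and the targets together, 0 probe sets passed in the main fit. With that trend and robust variance together 8 did, among them Myog, Myod1, Cxcl1, Celf2, Eif2ak2 and Akt2, beside 408 of all 23410 probe sets. With the filters 1 and 3 did, beside 69 of 17844 and 190 of 13444. The lists were chosen with earlier results known, so these counts do not test them. The cause of the change in count was not tested. Small differences changed sign. After median centring Zfp36l2 was -0.018, Exosc10 -0.0074 and the second Lsm5 probe set -0.0019. With array weights the third Lsm5 probe set was 0.013 and the second Ywhah probe set 0.0064. Without single arrays, ranges were -0.0099 to 0.044 for Hnrnpd, -0.014 to 0.036 for Zfp36l2, -0.00036 to 0.094 for Parn, -0.012 to 0.053 for the second Lsm5 probe set, -0.042 to 0.027 for the third Lsm5 probe set, -0.017 to 0.0102 for the second Ywhah probe set and -0.0014 to 0.057 for Wipf2.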
